A study of Mus musculus with 82 samples.

Results

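The replication licensing genes Mcm2, Mcm3, Mcm4, Mcm5, Mcm6, Mcm7, Orc1, Cdc6 and Cdt1 were chosen by name as 9 of the 24757 curated RefSeq genes of GRCm38, and the sense reads on their spans were counted in each assay. The libraries hold nascent RNA from mouse ES cells of the V6.5 line, 1 cell line grown with serum and leukaemia inhibitory factor, with no treatment and no cell cycle phase among the labels. Nascent RNA is labelled in a nuclear run-on reaction, so a read is meant to mark RNA under an engaged polymerase rather than mature mRNA. The part of reads from other RNA was not tested, and reads on exons and at a microRNA gene are described below. In scGRO–seq each well of a plate holds 1 intact nucleus, in inAGTuC each well holds many intact nuclei, and AGTuC is a bulk run-on with more sarkosyl, a detergent that opens nuclei. The comparisons used 10 scGRO–seq batches (2518 cells in 35 libraries), 4 inAGTuC libraries from 3 batches and 2 AGTuC libraries, and they ask how the licensing genes are read by each assay and whether they are transcribed in the same cells. The labels do not say whether libraries of a batch came from separate cultures, so p-values measure the spread between these libraries or batches, which may be technical.

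Licensing prepares each origin of replication to fire once per cell cycle. Orc1, the largest subunit of the origin recognition complex, and Cdc6, an ATPase that binds it, load the hexameric helicase made of Mcm2 to Mcm7 onto DNA together with Cdt1, and geminin, the product of Gmnn, blocks Cdt1 outside G1. Several of these genes are known targets of E2F factors, which rise toward S phase, and mouse ES cells are known for a short G1 phase.

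Reads per unit differed widely, from 223119 to 4928371 UMIs in the kept cells of an scGRO–seq batch, from 623265 to 1462003 reads in an inAGTuC library and from 2231837 to 4755740 reads in an AGTuC library. Each of the 53 scGRO–seq libraries of these batches carries 1 of 3 sets of 96 cell barcodes, and every barcode occurs in more than 1 library. A read was left out where another library held one with equal position, strand, barcode and UMI. This took out 28.9% of the reads of the 53 libraries, 16.8% of inAGTuC reads and 0.33% of AGTuC reads. It thus acted almost only on the other side of the comparisons with AGTuC, and fits with all deposited reads are given below as an alternative. The inAGTuC library Exp261_c16 is also listed under an scGRO–seq label, and that copy was not used. Both AGTuC libraries belong to 1 batch, which holds no other assay, so batch and assay cannot be told apart for AGTuC. Of the 10 scGRO–seq batches, Exp208 alone also holds inAGTuC libraries, while the scGRO–seq libraries that share Exp234 and Exp261 with inAGTuC were outside the 10. All 8 stem cell markers fixed for the check, Pou5f1, Nanog and Sox2 among them, had reads in each assay, with a summed level of 44.2 to 146 in scGRO–seq, 71.98 to 112 in inAGTuC and 198.7 to 199.1 in AGTuC, in sense reads per kb of span per 1000000 reads on the genes tested, the scale used for all levels here. Summed levels of the fibroblast, endoderm, neuroectoderm and mesoderm lists stayed between 0 and 4.75 in every unit. Of the 8 stem cell markers, 6 passed as higher in AGTuC than in inAGTuC and 7 than in scGRO–seq, and their part in the differences described below was not tested. Zfp42 passed in neither comparison (adjusted p = 0.172 and 0.0516), and Dppa5a, with mean levels of 25.5 in AGTuC and 28.1 in inAGTuC, did not pass between these assays (0.707). Of the other lists, Pax6 was lower in AGTuC in both comparisons, with log2 differences of -5.46 and -5.41, and Col1a1 was lower against scGRO–seq (-2.33).

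The starts of these genes matter for the reads described below, since AGTuC reads gather close to them. RefSeq promoters of GRCm38.p6, from 250 bp before to 50 bp after a start, were held for 8 of the 9 genes. The promoters of Mcm6 and Mcm2, the genes whose ratio of promoter to body reads passed a test below, of Cdt1, which has the most antisense reads upstream, and of Orc1, whose level passed in no comparison, are printed 5′ to 3′ along the gene. Capitals mark 3 kinds of motif on either strand: an E2F site (the words TTTCCCGC, TTTGGCGC, TTTCGCGC or TTTGCCGC), the CCAAT box (CCAAT) and the GC box (GGGCGG), and neighbouring matches can overlap in 1 run of capitals.
Mcm6, chr1:128359656-128359955, minus strand: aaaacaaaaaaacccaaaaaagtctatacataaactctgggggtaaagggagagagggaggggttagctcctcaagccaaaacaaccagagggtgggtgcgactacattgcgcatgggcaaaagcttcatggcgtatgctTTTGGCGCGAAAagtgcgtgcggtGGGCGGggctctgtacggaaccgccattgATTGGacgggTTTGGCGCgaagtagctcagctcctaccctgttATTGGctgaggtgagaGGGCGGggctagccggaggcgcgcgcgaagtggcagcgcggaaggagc
Mcm2, chr6:88898731-88899030, minus strand: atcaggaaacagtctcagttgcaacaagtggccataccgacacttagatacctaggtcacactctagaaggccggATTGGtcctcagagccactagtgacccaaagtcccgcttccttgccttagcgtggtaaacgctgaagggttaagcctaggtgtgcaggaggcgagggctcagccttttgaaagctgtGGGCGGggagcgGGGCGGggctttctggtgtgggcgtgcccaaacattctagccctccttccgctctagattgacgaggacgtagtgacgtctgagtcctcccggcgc
Cdt1, chr8:122567765-122568064, plus strand: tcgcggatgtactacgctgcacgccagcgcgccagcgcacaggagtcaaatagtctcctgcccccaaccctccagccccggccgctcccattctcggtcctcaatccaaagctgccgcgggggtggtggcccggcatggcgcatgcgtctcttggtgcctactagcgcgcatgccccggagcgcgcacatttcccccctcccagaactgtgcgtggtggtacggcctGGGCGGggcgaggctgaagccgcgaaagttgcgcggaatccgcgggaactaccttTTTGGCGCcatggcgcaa
Orc1, chr4:108579204-108579503, plus strand: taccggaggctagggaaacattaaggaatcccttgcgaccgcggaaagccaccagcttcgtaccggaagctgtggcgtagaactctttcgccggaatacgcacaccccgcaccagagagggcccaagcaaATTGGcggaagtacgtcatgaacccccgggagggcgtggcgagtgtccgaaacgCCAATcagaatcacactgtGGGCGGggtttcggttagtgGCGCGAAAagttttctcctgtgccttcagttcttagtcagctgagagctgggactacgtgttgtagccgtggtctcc
The table holds 9 promoters of these 8 genes, 2 of them for Mcm7. An E2F word was found in 7 of the 9, all but that of Mcm2 and that of the later start of Mcm7, against 2.26% of 32817 promoters, or 4.23% of the 15956 promoters with at least 8 CpG dinucleotides. The words lie at both sides of the start, for example at -47 to -40 in Mcm6, at -27 to -20 in Orc1 and at 32 to 39 in Cdt1, counted from the start. The word of Cdc6 lies at -138 to -131 from a start 350 bp inside the span, so it falls after the start of the span. The CCAAT box occurs in 37.4% and the GC box in 35.6% of all promoters. CpG counts of the promoters ran from 8 in Mcm3 to 32 in Cdt1, against a median of 7 over all promoters. A match describes these letters only.

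The helicase genes Mcm5, Mcm7 and Mcm3 had the highest levels among the MCM subunits in scGRO–seq, and Mcm2, Mcm6 and Mcm4 lay lower. Mcm7 (chr5:138164583-138171883, minus strand, 7.30 kb) had levels of 4.51 to 23.6 with a median of 6.84 over the 10 scGRO–seq batches, 3.06, 8.64, 8.77 and 6.98 in the inAGTuC libraries Exp208_c12, Exp208_c14, Exp234_c11 and Exp261_c16, and 24.01 and 22.3 in the AGTuC libraries Exp125c_c01 and Exp125c_c02. The AGTuC values were above every inAGTuC value, and 1 scGRO–seq batch, Exp156, reached their range. Mcm5 (chr8:75109509-75128439, plus strand, 18.9 kb) had 4.70 to 14.5 with a median of 6.20 in scGRO–seq, 6.89, 7.11, 5.25 and 5.32 in the inAGTuC libraries in the same order, and 11.1 and 11.6 in AGTuC. Among the batches Exp156 alone lay above the AGTuC values, and the inAGTuC libraries lay below them. Mcm3 (chr1:20802968-20820312, minus strand, 17.3 kb) had 3.97 to 11.4 with a median of 5.01 in scGRO–seq, 5.37, 6.67, 5.35 and 4.21 in inAGTuC, and 12.5 and 12.4 in AGTuC. Here the AGTuC libraries lay above all other units, with Exp156 next.

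Mcm6 (chr1:128331575-128359705, minus strand, 28.1 kb) had levels of 2.01 to 5.23 with a median of 3.42 in scGRO–seq, 4.90, 5.01, 3.30 and 3.09 in inAGTuC, and 8.06 and 7.99 in AGTuC. The AGTuC libraries did not overlap the other units. Mcm2 (chr6:88883474-88898780, minus strand, 15.3 kb) had 1.69 to 6.27 with a median of 3.64 in scGRO–seq, 4.14, 4.94, 5.05 and 2.50 in inAGTuC, and 5.61 and 5.57 in AGTuC. For this subunit, whose tail is phosphorylated by the Dbf4-dependent kinase, the highest scGRO–seq batch (Exp208) lay above AGTuC. Mcm4 (chr16:15623897-15637400, minus strand, 13.5 kb) had 1.55 to 6.82 with a median of 3.31 in scGRO–seq, 3.59, 2.65, 2.29 and 3.43 in inAGTuC, and 4.503 and 4.34 in AGTuC, so that AGTuC lay inside the range of the batches.

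Among the loading factors, Cdt1 had the highest and Cdc6 the lowest mean level in scGRO–seq and in inAGTuC. Cdt1 (chr8:122568015-122573130, plus strand, 5.12 kb) had levels of 3.51 to 16.2 with a median of 4.75 in scGRO–seq, 8.74, 10.7, 10.8 and 3.85 in inAGTuC, and 24.5 and 22.6 in AGTuC. The short span gave few reads, 4 to 62 per scGRO–seq batch, and AGTuC lay above every other unit. Cdc6 (chr11:98907801-98923942, plus strand, 16.1 kb) had 0.437 to 3.21 with a median of 1.63 in scGRO–seq, 2.31, 1.56, 2.87 and 2.22 in inAGTuC, and 6.96 and 6.60 in AGTuC. The lowest value rests on 1 read in Exp160, and AGTuC again stood above all other units. Orc1 (chr4:108579454-108614833, plus strand, 35.4 kb) had 1.99 to 4.21 with a median of 2.58 in scGRO–seq, 3.47, 3.45, 3.56 and 3.01 in inAGTuC, and 3.78 and 3.63 in AGTuC. For this gene AGTuC lay just above the inAGTuC libraries and inside the range of the batches.

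Ordered by mean level in scGRO–seq (mean ± SD, n = 10 batches), Mcm7 stood first with 8.33 ± 5.63, followed by Mcm5 with 6.86 ± 2.81, Cdt1 with 6.82 ± 4.12 and Mcm3 with 5.49 ± 2.20. Mcm2 (3.82 ± 1.62), Mcm6 (3.64 ± 1.00), Mcm4 (3.43 ± 1.50), Orc1 (2.83 ± 0.766) and Cdc6 (1.80 ± 0.817) came after them. Neighbours in this order differed by less than the SD of their difference over batches, except Orc1 and Cdc6, where Orc1 was higher in 9 of 10 batches. Against the 16003 genes tested, whose median level was 1.06, the 9 genes stood between percentiles 71.9 (Cdc6) and 98.1 (Mcm7) in scGRO–seq. In AGTuC the order changed at both ends. Cdt1 (23.5 ± 1.31, n = 2) stood above Mcm7 (23.2 ± 1.21), Mcm3 above Mcm5, Mcm6 above Mcm2, and Cdc6 (6.78 ± 0.251) above Mcm2, Mcm4 and Orc1, each in both libraries.

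**Figure D1:**
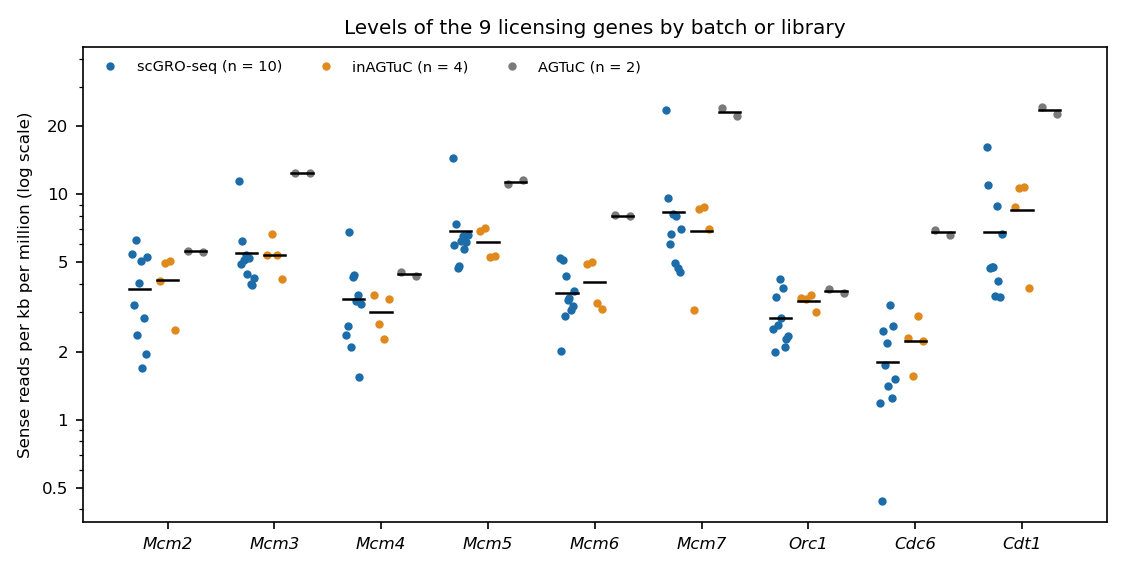
Level of each licensing gene in sense reads per kb of span per 1000000 reads on tested genes, on a log axis; points are the 10 scGRO–seq batches, 4 inAGTuC libraries and 2 AGTuC libraries, and black lines are their means. The AGTuC points lie above all inAGTuC points for each of the 9 genes, by little for Orc1, whose AGTuC values are 3.78 and 3.63. The share of all genes with such a separation, from inAGTuC or from both other assays, was not counted, so it does not set these genes apart. Of all genes tested 25.7% passed as higher in AGTuC than in inAGTuC, and the median log2 difference was 0.32 over all genes.

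Summed over each assay, reads were mostly in the sense direction, but not in every unit. In the inAGTuC library Exp234_c11 sense and antisense reads were 42 and 50 for Mcm3, 45 and 60 for Mcm5, 25 and 28 for Cdt1 and 14 and 14 for Mcm4. Its levels of these genes were thus not above those of the other strand, while the remaining genes had more sense reads there. In the scGRO–seq batch Exp263 Cdt1 had 6 and 7. The ratio of sense to antisense reads on the spans ran from 2.30 (Cdt1) to 3.77 (Mcm7) in scGRO–seq and from 1.51 (Cdt1) to 3.81 (Mcm6) in inAGTuC, where the medians of all genes tested were 1.99 and 1.75. In AGTuC, with a median of 7.41, the ratio was lowest in Mcm7 (4.45, 726 against 163 reads), while Mcm3 had 940 sense reads against 1 antisense read and Mcm4 had 258 against 0. No annotated gene overlaps a span of the 9 genes on either strand, apart from the microRNA genes inside Mcm7.

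AGTuC read 6 of the 9 genes higher than inAGTuC did, namely Mcm3, Mcm5, Mcm6, Mcm7, Cdc6 and Cdt1, and none lower, by limma with adjustment over 16003 genes. Of all genes tested 25.7% were higher in AGTuC, and the median log2 difference was 1.04 over the 9 genes and 0.32 over all genes. The 9 genes stood between percentiles 71.9 and 98.1 of level in scGRO–seq. A background of genes of like level was not drawn for this comparison or the next. The largest difference was that of Mcm7, with a log2 fold difference of 1.73 ± 0.349 (SE) and an adjusted p of 0.000841, followed by Cdt1 (1.67 ± 0.369, 0.00153) and Cdc6 (1.59 ± 0.326, 0.000912). Mcm3 (1.24 ± 0.264, 0.00123), Mcm6 (1.04 ± 0.259, 0.00343) and Mcm5 (0.91 ± 0.269, 0.00989) followed. Mcm2 (0.53, 95% interval -0.19 to 1.24, adjusted p = 0.219), Mcm4 (0.55, -0.15 to 1.25, 0.192) and Orc1 (0.14, -0.41 to 0.69, 0.690) did not pass the threshold of 0.05. Without Exp261_c16, 6 genes passed as well, with Cdt1 at 1.17 and Mcm6 at 0.89. Mcm5 no longer passed without the AGTuC library Exp125c_c02 (0.88, adjusted p = 0.0906), with all deposited reads (0.61, 0.0698), or with all batches labelled scGRO–seq in the fit (0.90, 0.342), where Mcm6 was lost too (1.03, 0.134). With a limma trend on log2(RPM + 1), Mcm3 and Mcm7 alone passed.

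Against scGRO–seq, which shares the AGTuC libraries with the comparison above, 6 of the 9 genes were higher in AGTuC and none lower, and 40.7% of all genes tested were higher. Cdt1 differed most, at 2.10 ± 0.315 with an adjusted p of 2.01e-05 or 4.28-fold, and Cdc6 followed at 1.91 ± 0.276 with an adjusted p of 1.35e-05. Mcm7 differed by 1.72 (5.18e-05), Mcm3 by 1.30 (8.14e-05), Mcm6 by 1.14 (0.000255) and Mcm5 by 0.88 (0.00265). Mcm2 (0.62, 95% interval 0.00 to 1.25, adjusted p = 0.0755), Orc1 (0.37, -0.12 to 0.85, 0.179) and Mcm4 (0.34, -0.25 to 0.93, 0.303) did not pass. The median log2 difference was 1.14 over the 9 genes and 0.49 over all genes. With median-of-ratios scaling the median of all genes moved to 0.032 against inAGTuC and 0.055 against scGRO–seq, and the genes called higher and lower moved from 4111 and 2870 to 2838 and 3558 and from 6506 and 3281 to 4401 and 4307. Mcm5 then lost its call (0.63, adjusted p = 0.0636, and 0.44, adjusted p = 0.112), while the values of Orc1 in both comparisons and of Mcm4 against scGRO–seq lay below 0. Against scGRO–seq Mcm5 did not pass either without Exp125c_c02 (0.84, adjusted p = 0.0569), with all batches labelled scGRO–seq (1.37, 0.0544) or with the trend (0.79, 0.0662). Orc1 passed without Exp236 (0.51, adjusted p = 0.0485), and Mcm2 passed when gene bodies alone were counted (0.80, 0.0372). Fewer cells that transcribe a gene and less RNA per cell cannot be told apart in these sums.

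Genes around the licensing reaction were read from a list of 34 other pathway genes. Against inAGTuC, 10 of the 34 were higher in AGTuC and none lower, where 25.7% of all genes were higher. By role these were 5 of 8 regulators of the G1/S transition, 3 of 13 genes of helicase activation, 2 of 4 genes of inhibition and turnover, 0 of 4 relatives and partners of the MCM subunits and 0 of the 5 origin recognition genes Orc2 to Orc6. The smallest adjusted p-values belonged to the transcription factor gene E2f2 (log2 difference 2.53, 0.000184), the cyclin E gene Ccne2 (2.54, 0.000261), Donson (1.82, 0.00131), whose product takes part in helicase activation, and Gmnn (1.59, 0.00131). Against scGRO–seq, 16 of the 34 were higher and none lower, where 40.7% of all genes were higher, led by Donson (2.38), E2f2 (2.42), the GINS helicase subunit gene Gins2 (2.24) and E2f1 (2.13). In the same order of roles, 4, 6, 3, 2 and 1 genes passed, the last being Orc2 (0.64, adjusted p = 0.0174), named after its values were seen. The median of the list was 0.53 against inAGTuC and 0.64 against scGRO–seq.

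Between the assays on intact nuclei no licensing gene passed the test, and levels lay close for most. Between scGRO–seq and inAGTuC 0 of the 9 genes and 0% of the 16003 genes tested passed, while 907 genes and 0 of the 9 had an unadjusted p under 0.05. Without Exp261_c16, the library listed under both labels, 182 genes passed, 17 higher and 165 lower in scGRO–seq, with 0 of the 9 among them. The log2 difference of scGRO–seq over inAGTuC ran from -0.43 in Cdt1 (95% interval -1.16 to 0.31) to 0.21 in Mcm4 (-0.41 to 0.83), and that of Orc1 was -0.23 (-0.69 to 0.23). Within the shared batch Exp208, with the 2 scGRO–seq libraries summed, levels in scGRO–seq and in the inAGTuC libraries c12 and c14 lay close for Mcm5 (7.40, 6.89 and 7.11), Mcm6 (5.12, 4.90 and 5.01) and Orc1 (3.51, 3.47 and 3.45). In the same sums Mcm4 was higher in scGRO–seq (6.82, 3.59 and 2.65), and Cdt1 was lower (4.69, 8.74 and 10.7, from 6, 12 and 26 reads). Taken singly, and scaled to the reads on the 5396 genes tested within the batch, the scGRO–seq libraries c01 and c11 lay further apart. Mcm5 had 4.31 and 11.1 in them against 8.85 and 8.70 in c12 and c14, from 5, 30, 35 and 64 reads. Mcm6 had 4.06 and 7.20 against 6.30 and 6.13. Orc1 had 1.38, from 3 reads, and 5.53 against 4.46 and 4.22. A limma fit of the 4 libraries of Exp208, 2 of each assay, tested 6 of the 9 genes, since Mcm7, Cdc6 and Cdt1 had fewer than 50 reads, and 0 of 5396 genes passed. Its log2 difference was largest in Mcm4 (1.11, 95% interval 0.14 to 2.09, unadjusted p = 0.0305, adjusted p = 0.907) and ran from 0.0068 in Mcm6 to 0.49 in Mcm2 in the other 5. Of the 34 pathway genes none passed, and 3 had an unadjusted p under 0.05. Without Exp261_c16 the difference of Cdt1 was -0.93 and did not pass (adjusted p = 0.148).

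**Figure D2:**
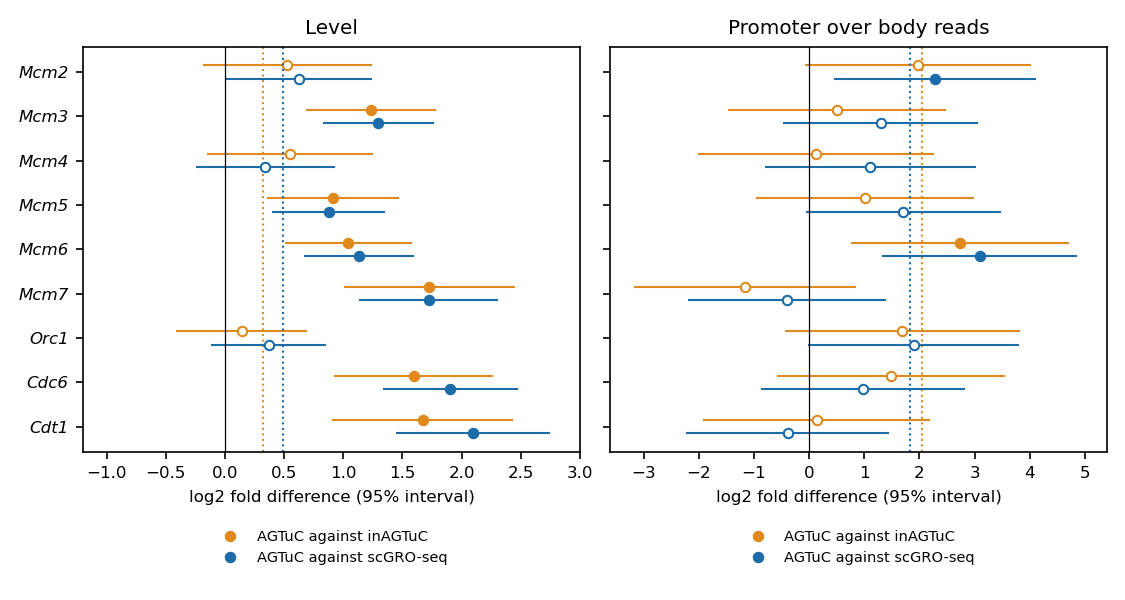
Log2 fold difference of AGTuC against inAGTuC (orange) and against scGRO–seq (blue) in level (left) and in the ratio of promoter to gene body reads (right), with 95% intervals; filled points have an adjusted p under 0.05 and dotted lines are the medians of all genes tested. Levels pass in 6 genes in both comparisons, and the promoter ratio passes in Mcm6 and, against scGRO–seq, in Mcm2.

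AGTuC placed more reads of Mcm6 and, against scGRO–seq, of Mcm2 near the start, and the other 7 genes did not pass. The promoter share is the percentage of reads in the 500 bp after the start among these and the reads of the gene body, which excludes 500 bp at each end. Summed over the 9 genes, it was 4.14% in scGRO–seq (140 of 3379 reads), 8.22% in inAGTuC (106 of 1289) and 14.9% in AGTuC (831 of 5578). Medians of all genes tested were 2.51%, 3.45% and 21.3%. The share of the 9 genes ran from 2.70% to 8.10% over the 10 scGRO–seq batches and was 15.4% and 14.7% in the AGTuC libraries. Among the inAGTuC libraries it was 5.56%, 5.83% and 3.66% in Exp208_c12, Exp208_c14 and Exp261_c16, and 19.6% in Exp234_c11, which thus stood apart. That library also had the highest promoter share over all genes, 5.03% against 2.02% to 3.497% in the other 3, and without it the 9 genes summed to 4.76% in inAGTuC.

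Mcm6 had the highest promoter share of the 9 genes in AGTuC. It had 77 of 307 and 137 of 649 reads there, 25.1% and 21.1%, against 0% to 4.76% in the scGRO–seq batches and 2.86%, 1.56%, 15.0% and 1.43% in the inAGTuC libraries. The ratio of promoter to body reads was higher in AGTuC by 3.09 ± 0.885 on the log2 scale against scGRO–seq (adjusted p = 0.00600) and by 2.73 ± 0.990 against inAGTuC (0.0288), on values with a pseudocount of 0.5. Mcm2, the gene with the next largest difference against scGRO–seq, had promoter shares of 13.4% and 16.5% in AGTuC, 4 promoter reads in 1 of the 10 scGRO–seq batches and none in the others, and 0, 2, 3 and 0 reads in inAGTuC. Its ratio was higher by 2.29 ± 0.918 against scGRO–seq (adjusted p = 0.0423) and by 1.98 ± 1.03 against inAGTuC, which did not pass (0.119). These were 2 of 9 genes higher against scGRO–seq, where 35.1% of the 15471 genes tested were higher, and 1 of 9 against inAGTuC, where 32.8% were. None of the 9 was lower. The call of Mcm2 was lost when any of 4 batches was left out, Exp208 (adjusted p = 0.0569), Exp246 (0.0525), Exp260b (0.0523) or Exp264a (0.0580), with values of 2.10 to 2.26. It was also lost with a mapping quality of at least 10 (adjusted p = 0.0927), no filter on low counts (0.0552), a pseudocount of 1 (0.155) or a promoter of 250 bp (0.0591), while Mcm5 passed with all deposited reads (0.0496), for 3 genes in all, and with a promoter of 250 bp (0.0388). When either AGTuC library was left out, 0 of 9 passed in both comparisons, and Mcm6 then had values of 2.93 and 3.26 against scGRO–seq with adjusted p-values of 0.110 and 0.0938. The call of Mcm6 against inAGTuC was lost too without Exp208_c14 (2.42, adjusted p = 0.0715) or Exp261_c16 (2.38, adjusted p = 0.0748), and without Exp234_c11 2 genes passed.

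Mcm7 and Cdt1 had about the same promoter share after the first start in scGRO–seq and AGTuC, 8.0% and 8.43% for Mcm7 and 14.6% and 15.9% for Cdt1, while inAGTuC had 16.3% and 15.9%. These shares come from summed reads. The fit averages the log2 ratios of the batches, with the pseudocount, and gave differences of AGTuC over scGRO–seq of -0.40 (95% interval -2.20 to 1.40) and -0.39 (-2.23 to 1.46), opposite in sign to the summed shares. Neither passed, and even coverage of these short genes would give 7.35% and 10.8%. Reads after a later start of Mcm7, described below, were counted in its gene body. Among the 34 pathway genes, promoter ratios were higher in 15 and lower in 1 against scGRO–seq and higher in 13 against inAGTuC, where 35.1% and 32.8% of all genes were higher, with Donson first in both (5.11 and 6.54).

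The AGTuC reads of 8 of the 9 genes peaked between 50 and 149 bp after the start, and 65.2% of the reads of all 9 genes in the first 500 bp lay at 50 to 199 bp. Mcm6 had its peak of 84 reads at 50 to 99 bp, Mcm5 43 reads at 100 to 149 bp, Mcm3 40 reads at 100 to 149 bp and Orc1 39 reads at 50 to 99 bp. Mcm7 differed, with its highest bin at 900 to 949 bp (29 reads). RefSeq gives Mcm7 another start 617 bp further, and 155 AGTuC reads lay in the 500 bp after it against 57 after the first start. In scGRO–seq 19 reads lay after the later and 22 after the first start, and in inAGTuC 8 and 17. For Cdc6 the span begins 350 bp before the start of its RefSeq promoter, and 77 AGTuC reads followed the start of the span against 16 after the later start. The highest bins of Mcm6, Cdt1 and Orc1 thus lie just past the last base of the printed promoters and that of Mcm2 lies 50 bp further, while the last 50 bases printed held 33 AGTuC reads in Orc1, 11 in Mcm6, 10 in Cdt1 and 0 in Mcm2. Mcm6 also had AGTuC sense reads before its annotated start, with 10, 21 and 16 at -150 to -101, -100 to -51 and -50 to -1 bp. The promoter share leaves these out, and whether transcription of Mcm6 begins before the annotated start was not tested.

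Antisense reads upstream of the starts varied more than sense reads. In the 1 kb before the start, Cdt1 had 320 antisense reads in AGTuC, with 74 reads in its fullest 50 bp bin at 251 to 300 bp and no annotated gene starting there on the other strand. Mcm5, likewise without such a neighbour, had 66 reads. Mcm4 had 151 reads, 91 of them at 501 to 550 bp, but the gene of the DNA repair kinase Prkdc starts 466 bp away on the other strand. Mcm7 had 49, with the adaptor complex gene Ap4m1 at 138 bp, and Orc1 43, with the splicing factor gene Prpf38a at 118 bp. Mcm6, Mcm2 and Mcm3 had 9, 8 and 6 reads, and Cdc6 had 0, although it had 77 sense reads in its first 500 bp. Per 1000000 reads on the genes tested, this region of Cdt1 had 73.5 antisense reads in AGTuC, 1.101 in scGRO–seq and 1.94 in inAGTuC, and that of Mcm5 15.2, 0.367 and 2.43. Mcm4 had 34.7, 2.75 and 2.43, Mcm7 11.3, 6.06 and 4.37, and Orc1 9.88, 3.30 and 2.43 in the same order, and these differences were not tested.

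**Figure D3:**
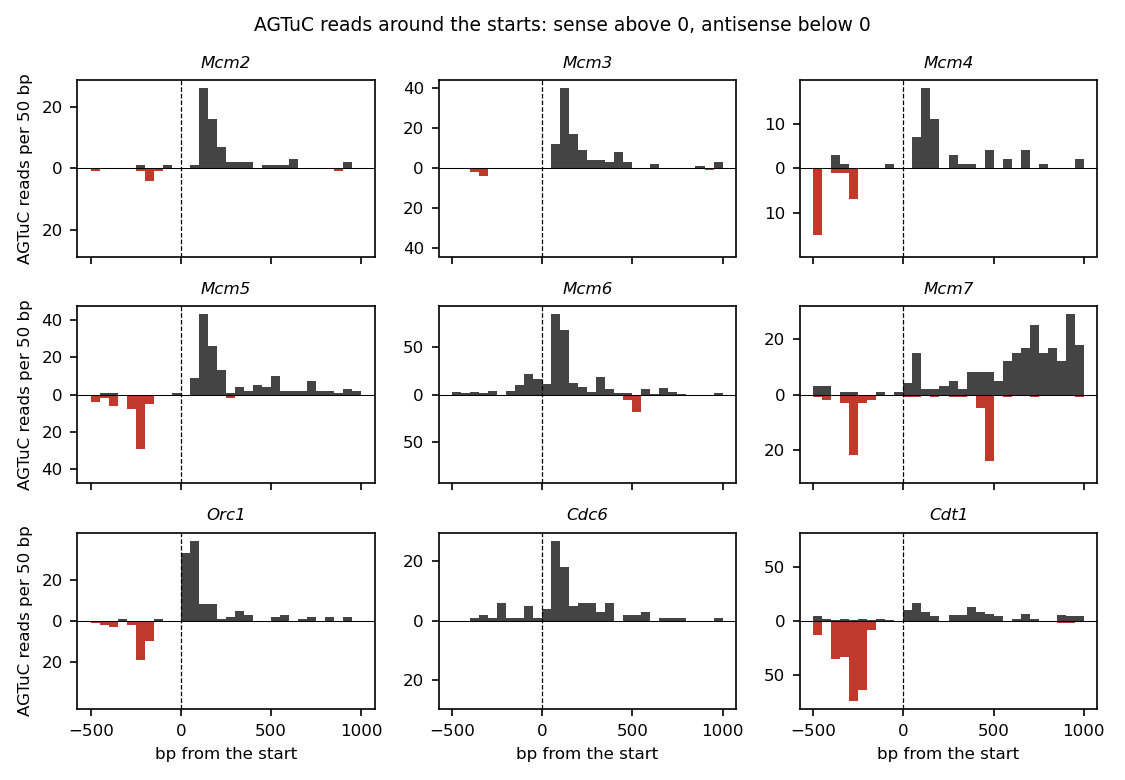
AGTuC reads of both libraries in 50 bp bins from 500 bp before to 1 kb after the start of each gene, sense above 0 and antisense below 0; each panel has its own scale. Sense reads peak within 150 bp of the start in 8 genes, Mcm7 peaks at 900 to 949 bp, and Cdt1 has its highest bin, 74 antisense reads, upstream.

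Inside the gene bodies, reads of most genes were spread over the length. The last of 3 equal parts of the body held 46.2% of the reads of Mcm7 in scGRO–seq (Wilson interval 40.2% to 52.4%) and 57.5% in inAGTuC, against 37.3% in AGTuC. This part of Mcm7 includes the microRNA genes Mir25, Mir93 and Mir106b. They held 6, 21 and 6 of its 117 reads in scGRO–seq, 0, 6 and 0 of 50 in inAGTuC and 19, 13 and 8 of 231 in AGTuC. Mcm4 had the fewest reads there, 23.8%, 23.6% and 22.1% in scGRO–seq, inAGTuC and AGTuC, and Cdc6 had 28.2%, 38.2% and 46.9%. The share of reads on exons in scGRO–seq was above the share of exonic bases for Mcm3 (45.9% of reads, 17.5% of bases), Mcm2 (43.1%, 22.02%), Mcm6 (35.4%, 15.8%), Mcm4 (41.4%, 26.6%), Mcm5 (28.2%, 18.2%), Orc1 (17.3%, 8.52%) and Cdt1 (56.5%, 42.8%). It was close to it for Mcm7 (43.2%, 39.4%) and Cdc6 (30.95%, 31.1%). In AGTuC the exonic share was lower for Mcm3 (23.3%), Mcm2 (22.8%) and Mcm5 (20.9%), about the same for Mcm6 (35.5%), and higher for Cdc6 (48.3%). Intervals cover counting error only, since reads of a library are not independent draws of cells.

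Single positions took a visible part of some genes. In Mcm2, 20 UMIs of 19 cells lay in the 50 bp bin at 3900 to 3949 bp from the start, all in 6 libraries of batch Exp260b, where Mcm2 had 43 UMIs in all. In Mcm3 the fullest bin held 18 UMIs of 18 cells from 5 batches, and in Orc1 17 UMIs of 17 cells from 4 batches. In Mcm7 the fullest bin, 19 UMIs of 19 cells in 14 libraries of 5 batches, lies at the microRNA gene Mir93, which sits inside Mcm7 together with Mir25 and Mir106b.

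The 14 bases just 5′ of mature miR-93-5p (chr5:138165597-138165610, minus strand, GRCm38) held 14 scGRO–seq UMIs from 14 cells, 12 libraries and 5 batches. They make up 4.76% of the Mcm7 UMIs on 0.192% of its length, while inAGTuC had 1 read and AGTuC 2 reads there. The mature sequence itself had 4 scGRO–seq UMIs. The RefSeq mature sequences of the microRNAs next to this position are shown with the seed, bases 2 to 8, in capitals, since both arms begin with the same seed.
miR-93-5p: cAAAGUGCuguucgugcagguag
miR-106b-5p: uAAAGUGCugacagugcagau
Mir106b had 6 reads in scGRO–seq, 0 in inAGTuC and 8 in AGTuC, and Mir25 had 6, 0 and 19.

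Between scGRO–seq batches, 2 of the 9 genes varied more than between libraries of a batch, Mcm7 (F = 3.63, adjusted p = 0.0113) and Mcm5 (F = 3.46, adjusted p = 0.0142). Among all 12290 genes tested 32.3% did. Exp156, the batch with the fewest UMIs per cell (median 1864), held the highest level of Mcm7 (23.6 against 4.51 to 9.67 in the other batches), Mcm5 (14.5 against 4.70 to 7.40) and Mcm3 (11.4 against 3.97 to 6.23). Without Exp156 none passed, with adjusted p-values of 0.482 for Mcm7 and 0.848 for Mcm5. Without Exp260b only Mcm5 passed, and without Exp246 4 genes did, Mcm3 and Cdt1 in addition. Without Exp236 Mcm5 did not pass (adjusted p = 0.0944). With a limma trend on log2(RPM + 1) neither Mcm7 (adjusted p = 0.0999) nor Mcm5 (0.124) passed and Mcm6 did (0.0305), and with all deposited reads Mcm5 did not pass (0.119) while Mcm2 (0.0219) and Orc1 (0.0359) did. Mcm3 (adjusted p = 0.0545 over all batches) passed when any of 7 batches was left out, Exp160, Exp211, Exp236, Exp246, Exp260, Exp263 or Exp264a, with values of 0.0396 to 0.0490. Of the 34 pathway genes 8 varied between batches, led by Dtl (adjusted p = 7.0e-05), which encodes the substrate receptor of a ligase for Cdt1, Fzr1 (0.00625), E2f3 (0.00907) and Ticrr (0.0115).

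Over the 16 units (10 batches, 4 inAGTuC and 2 AGTuC libraries), Pearson correlations of log2 levels among the 36 pairs of licensing genes had a median of 0.47, with all 36 above 0. Over the 10 scGRO–seq batches alone the median was 0.33, from -0.36 to 0.91, with 26 of 36 above 0. Units share depth and assay, and 6 of the 9 genes were higher in the 2 AGTuC libraries. Correlations among pairs of other genes were not computed, so these values are descriptions and do not set the 9 genes apart. The genes most like the mean of the 9 standardised levels, among 6450 genes with at least 500 reads, were Eloc (r = 0.952 over 16 units), Wbp11 (0.9503), Cenpv (0.939), Gm38431 (0.925) and Cenpf (0.913).

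In single cells, 1685 of the 2518 (66.9%, Wilson interval 65.1% to 68.7%) had at least 1 sense UMI of any licensing gene, from 47.4% in Exp263 to 80.7% in Exp236. Mcm5 was seen in 19.98% of cells (13.4% to 34.95% between batches), Orc1 in 19.9% (9.68% to 33.005%), Mcm6 in 19.1% (8.60% to 28.9%) and Mcm3 in 16.3% (8.70% to 27.2%). These shares are not scaled to length, and Exp236, with 812 of the cells, was the highest batch for Orc1 and Mcm6. Mcm2 (11.3%), Mcm7 (10.4%), Mcm4 (10.2%), Cdc6 (6.12%) and Cdt1 (5.48%) were seen in fewer cells. With each batch weighted equally the order was Mcm5 (mean 20.1%), Orc1 (16.5%), Mcm6 (16.3%), Mcm3 (15.95%), Mcm2 (9.92%), Mcm7 (9.82%), Mcm4 (8.46%), Cdt1 (5.64%) and Cdc6 (5.05%), with SDs over batches of 2.42 to 6.86 percentage points. The means of Orc1, Mcm6 and Mcm3 thus lay within their spread of each other, as did those of Cdt1 and Cdc6. Antisense UMIs on the same spans were seen in 2.34% (Cdc6) to 6.63% (Mcm5) of cells, below the sense share of every gene. Cells with a licensing gene were deeper, with a median of 3737 UMIs against 2982 in cells without one. Of the cells, 886 had 1 of the 9 genes, 495 had 2, 177 had 3 and 1 cell had all 9, and cells with 1 gene had a median of 3238 UMIs against 8903 UMIs in the 78 cells with 4.

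**Figure D4:**
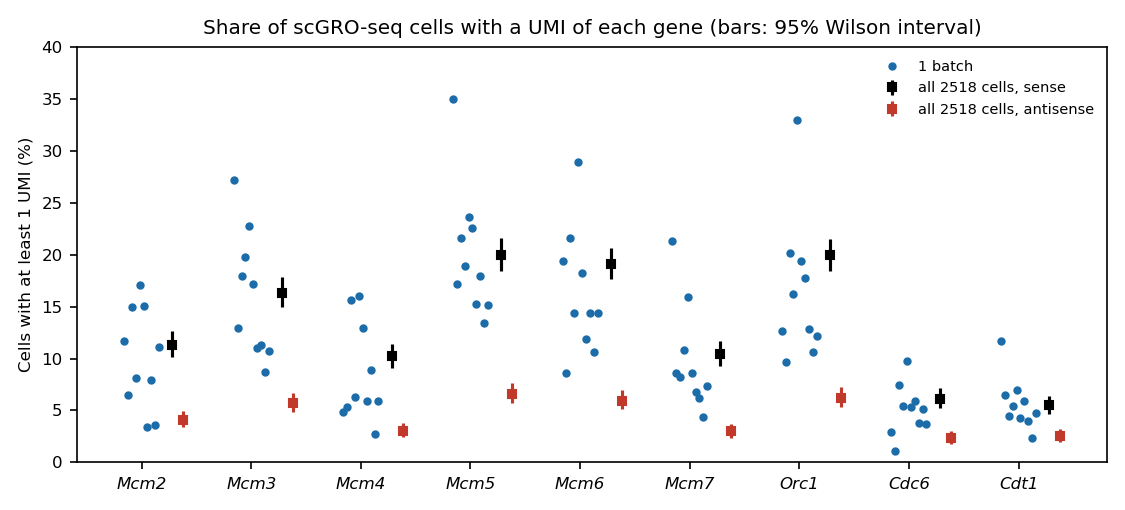
Percentage of scGRO–seq cells with at least 1 UMI of each gene; blue points are the 10 batches, black squares the sense and red squares the antisense share over all 2518 cells with 95% Wilson intervals. The sense share lies above the antisense share for all 9 genes, and Exp156 is the highest batch for Mcm5 (34.95%).

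Cells with UMIs of 2 licensing genes were about as many as reads permuted among cells give. For each of the 36 pairs, the cells with UMIs of both genes were set against the number expected when reads are permuted among the cells of a library. None of the 36 pairs reached 1.5 times its expectation, where 5.77% of all 109688120 gene pairs with an expectation of at least 1 did, and 0.188% of those with an expectation at least as high as the lowest of the 36, 12.6 cells. Ratios ran from 0.80 (Mcm3 with Orc1, 98 cells against 122.7 expected, interval 0.65 to 0.97) to 1.19 (Mcm7 with Cdc6, 32 against 27.002, interval 0.81 to 1.67), with a median of 0.963 against 0.968 for all pairs of such expectation. Summed over the pairs, 2143 cells were seen and 2251 expected, a ratio of 0.952. When the first 10 kb of the 7 genes over 11 kb were counted alone, the ratio of their 21 pairs was 1.05. Only 11 pairs had ratios above 1, no interval lay above 1, and that of Mcm3 with Orc1 lay below it.

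The 6 pairs of neighbours in the MCM ring had ratios of 0.88 to 1.01, and each interval included 1. Mcm2 with Mcm5, neighbours at the gate of the ring, had 66 cells against 75.4 expected (0.88). Mcm4 with Mcm6 had 65 against 73.2 (0.89), Mcm2 with Mcm6 73 against 81.9 (0.89), Mcm4 with Mcm7 38 against 40.01 (0.95), Mcm3 with Mcm5 107 against 108.9 (0.98) and Mcm3 with Mcm7 66 against 65.1 (1.01). Cdc6 with Cdt1 had 13 against 12.6 (1.03, interval 0.55 to 1.77). Within batches the ratio of summed pairs ran from 0.865 in Exp246 to 1.13 in Exp260. Head-to-head neighbours had ratios below 1, with 119 cells against 120.5 for Mcm4 and Prkdc (0.987), 13 against 20.02 for Mcm7 and Ap4m1 (0.649, interval 0.35 to 1.11) and 47 against 57.8 for Orc1 and Prpf38a (0.813, 0.60 to 1.08). Where few cells are expected the intervals are wide, so that a ratio as high as 1.67 for Mcm7 with Cdc6 or 1.77 for Cdc6 with Cdt1 stays within them.

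**Figure D5:**
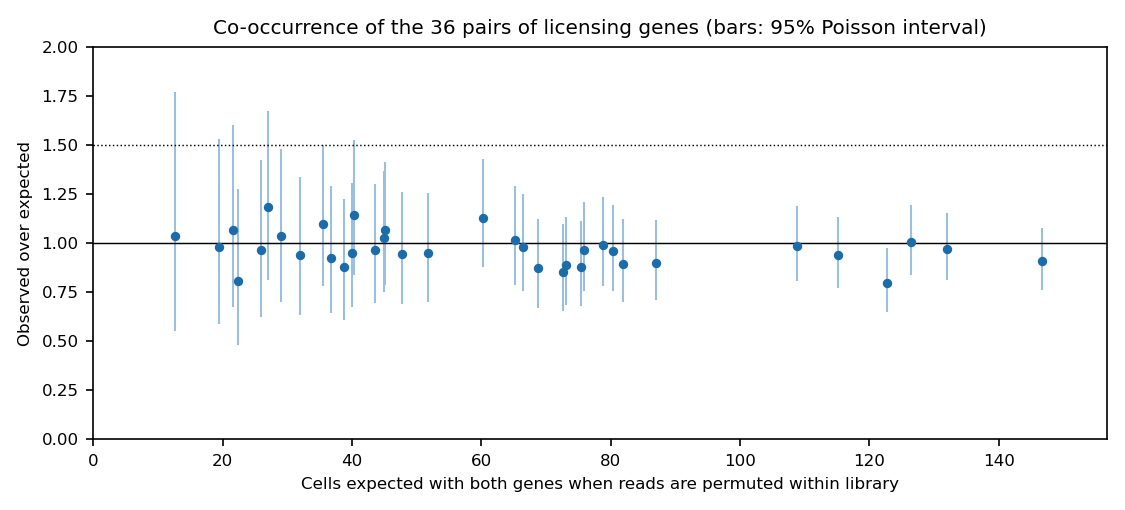
Observed over expected number of cells with both genes for the 36 pairs of licensing genes, against the expected number, with 95% Poisson intervals; the solid line is 1 and the dotted line 1.5. All points lie between 0.80 and 1.19, and the intervals narrow from left to right.

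Cells with more than 1 UMI of a licensing gene were close in number to the expectation from depth. Summed over the 9 genes, 416 cells had at least 2 UMIs of a gene against 394.2 expected, a ratio of 1.06. Cdc6 alone reached 1.5 times, with 14 cells against 9.24 (1.51, interval 0.83 to 2.54), where 16.4% of all genes did and 4.86% of those with an expectation at least as high as the lowest of the 9, 5.30 cells. Orc1 had 100 cells against 97.0, Mcm6 87 against 79.5 and Mcm5 75 against 72.7. When neighbouring UMIs (at most 50 bp apart in 1 cell) were merged, the summed ratio was 1.003.

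Replication-dependent histone genes are transcribed in S phase, and 1047 cells with a histone UMI were compared with the 1471 others. Depth differed between the classes, with medians of 3798 and 3194 UMIs, and 68.8% and 65.6% of cells had a licensing gene. Relative to all UMIs, the 9 genes had 1664 UMIs in cells with a histone UMI and 1839 in the others, or levels of 292.6 and 309.0 in UMIs per 1000000. Cells with UMIs of both a histone gene and a licensing gene were set against reads permuted among the cells of a library. Ratios ran from 0.896 (Cdc6, 70 cells against 78.1 expected) to 0.993 (Orc1, 238 against 239.6). They lay below 1 for all 9 genes, with 1 inside each interval. Ratios of histone genes with genes outside the 9 were not computed. Pairs of single genes with an expectation of at least 12.6 cells had a median ratio of 0.968. The histone genes were summed here, so that median is not a like background. Without one, values below 1 do not by themselves set the 9 genes apart. None of the 9 genes differed between the classes in a limma fit with batch as a block, where 0.472% of 12283 genes did, and none had an unadjusted p under 0.05. Log2 differences ran from -0.28 in Mcm4 (95% interval -0.68 to 0.12) to 0.05 in Orc1 (-0.21 to 0.31), and those of Mcm2, Cdt1 and Cdc6 were -0.22 (-0.59 to 0.16), -0.27 (-0.76 to 0.22) and -0.13 (-0.65 to 0.40). Of the 34 pathway genes none passed. A single histone UMI is a sparse mark of a cell, and each class may hold cells of several phases, which were not measured.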

How the data were processed

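The authors trimmed adaptors with cutadapt, demultiplexed reads with Flexbar, removed ribosomal reads, mapped the rest to mm10 with Bowtie2 and removed duplicates with UMI-tools (tools and build also per the submitters' processing notes, apart from Flexbar). They deposited 1 list per library, in which each line is 1 read with its barcode and UMI and the score is the mapping quality. The deposited score was not used as a level, and reads were counted here without further normalization by the authors. Read strand is opposite to the RNA.

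The 9 genes and all lists were chosen with earlier results of these data known. Reads found in more than 1 library were left out, as were cells under 1000 UMIs or 750 features and libraries in which fewer than 24 cells remained. Levels were fitted with voom in limma 3.58.1 (R 4.3.3) over 10 batches and 6 libraries, scaled to the reads on genes tested, with at least 50 reads per gene. All p-values were adjusted by the Benjamini-Hochberg method over all genes tested. Promoter ratios used limma with a trend. The fit of levels was tested on simulated data for AGTuC against inAGTuC, and the other fits were not. The simulated units were drawn independently, while units of a batch had a consensus correlation of 0.61 in the data. The spread of simulated counts was fixed alike for every gene and not estimated from the data. That test thus does not give the error rate of the fit in these data. Expected co-occurrence is the hypergeometric expectation within library. Intervals of shares are 95% Wilson intervals and those of ratios exact Poisson intervals, and both cover counting error only. Besides the 9 genes, the text names at most 4 of 34 pathway genes per comparison by smallest adjusted p (Orc2 was added after its values were seen), the genes that start within 1 kb on the other strand, 5 genes by likeness, and examples of markers. Python used numpy 2.4.6, scipy 1.17.1, pandas 2.3.3 and matplotlib 3.10.9. Alternatives covered cells kept, reads counted, filters, scaling, windows, models, samples, batch as a block and leaving out each batch or library. Reads of samples labelled scGRO–seq outside the 10 batches were counted in 1 alternative only, with 2824 cells kept in 14 batches. Apart from the copy of Exp261_c16, these samples also decided which shared reads were left out of the main fits. In that alternative 0 of the 9 genes passed for scGRO–seq against inAGTuC, 4 for AGTuC against inAGTuC and 5 for AGTuC against scGRO–seq. The median log2 difference of the 9 genes in scGRO–seq against inAGTuC moved from -0.093 to -0.41.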

Additional observations from a re-analysis of the deposited data

Results flagged for a closer look

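Of 32 groups of values examined for a sample far from the others, 7 had one by a limit that about 1 in 20 groups pass by chance, and these groups share batches and genes. In scGRO–seq, the levels of Mcm3 (11.4, others at most 6.23), Mcm5 (14.5, others at most 7.40) and Mcm7 (23.6, others at most 9.67) were highest in Exp156 by a wide gap. Exp156 also stood apart in the share of cells with a UMI of Mcm5 (34.95%, others at most 23.6%) and of Cdt1 (11.7%, others at most 7.02%). Exp236 stood apart in the share of cells with Orc1 (33.005%, others at most 20.1%). In inAGTuC, the promoter share of the 9 genes was 19.6% in Exp234_c11 and at most 5.83% in the other libraries. Exp156 has a median of 1864 UMIs per cell and Exp236 of 4155.5, against 2814 to 4077 in the other batches, and the part of depth in these values was not tested.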

How the results depend on the processing

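Between scGRO–seq and inAGTuC and between histone classes 0 of the 9 genes passed under every alternative run. No pair of the 9 genes reached 1.5 times its expectation under any. In the main fits 0% and 0.472% of all genes tested passed, and 0.188% of all gene pairs of like expectation reached 1.5 times. With shares so low, 0 calls among 9 genes or 36 pairs say little about these genes. With a limma trend on log2(RPM + 1), 2 genes passed in AGTuC against inAGTuC, Mcm3 and Mcm7, and 1 between batches, Mcm6, where Mcm7 and Mcm5 lost their calls. For promoter ratios against inAGTuC, 2 genes passed with all deposited reads and 2 with a promoter of 250 bp. Against scGRO–seq, 3 genes passed with all deposited reads, and Mcm6 alone, 1 gene, passed with a mapping quality of at least 10, 1 with no filter on low counts and 1 with a pseudocount of 1. Leaving out 1 batch or library gave 0 to 2 genes in both promoter comparisons, 0 to 4 between batches, 5 to 6 for levels against inAGTuC and 5 to 7 against scGRO–seq. The cause of these changes was not tested. Over all genes, calls between scGRO–seq and inAGTuC moved from 0 to 182 without Exp261_c16. Calls in AGTuC against inAGTuC moved from 6981 to 1912 with that trend, to 10830 with no filter on low counts and to 2825 without Exp125c_c02, and against scGRO–seq from 9787 to 4328, 15571 and 5689. Promoter calls moved from 5301 to 3470 without Exp261_c16 and to 652 and 539 without either AGTuC library, and against scGRO–seq from 5968 to 896 and 571. Calls between batches moved from 3973 to 2072 without Exp236, and between histone classes from 58 to 7 with at least 2 histone UMIs, 135 with all deposited reads, 213 with no filter, 0 without the block and 7 without Exp236. In the first 10 kb of the 7 genes over 11 kb, 39.5% of cells had a UMI, and the ratio of summed pairs was 1.05 over 21 pairs. Counting 1 UMI per position, strand and library, an alternative chosen after seeing the data, gave 66.5% of cells, a pair ratio of 0.946 and a multiplet ratio of 1.04.

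Differences that did not pass changed sign as follows (log2). For scGRO–seq against inAGTuC, median-of-ratios scaling gave 0.042 for Mcm2, 0.088 for Mcm3 and 0.051 for Mcm6. Libraries of Exp208 alone, an alternative chosen after seeing the data, gave 0.49 for Mcm2, 0.041 for Mcm3, 0.0068 for Mcm6 and 0.030 for Orc1. Batch as a random block gave 0.082 for Mcm2 and -0.035 for Mcm7. For Mcm3 the UMI minimum alone gave 0.0058 and gene bodies 0.0080. All batches labelled scGRO–seq gave -0.0094 for Mcm4 and -0.47 for Mcm5. For Mcm7 all deposited reads gave -0.034 and removal of reads on small RNA genes -0.065. Leaving out 1 batch or library moved Mcm2 between -0.41 and 0.035, Mcm3 between -0.21 and 0.055, Mcm5 between -0.051 and 0.13, Mcm6 between -0.25 and 0.034 and Mcm7 between -0.20 and 0.12. Median-of-ratios scaling gave -0.13 for Orc1 in AGTuC against inAGTuC, and -0.096 for Mcm4 and -0.058 for Orc1 against scGRO–seq. For promoter ratios against inAGTuC, Mcm4 had -0.023 with a mapping quality of at least 10 and -0.011 with a pseudocount of 1, and Cdt1 had -0.088 with that pseudocount and -0.82 with a promoter of 250 bp. Leaving out 1 batch or library moved Mcm4 between -0.42 and 0.54 and Cdt1 between -0.28 and 0.57. Against scGRO–seq, Cdt1 had 0.14 with all deposited reads. Between histone classes, a minimum of 2 histone UMIs gave 0.12 for Mcm3, 0.11 for Mcm4, -0.042 for Mcm6, 0.12 for Mcm7, -0.076 for Orc1, 0.30 for Cdc6 and 0.47 for Cdt1. All deposited reads gave 0.12 for Mcm2, 0.039 for Mcm3, -0.084 for Orc1, 0.14 for Cdc6 and 0.13 for Cdt1. Without the batch block Mcm6 had -0.034, Mcm7 0.18 and Orc1 -0.0037, and with the library as unit and block Mcm7 had 0.088. Leaving out 1 batch moved Mcm2 between -0.33 and 0.0038, Mcm3 between -0.23 and 0.033, Mcm5 between -0.086 and 0.0019, Mcm6 between -0.13 and 0.063, Mcm7 between -0.13 and 0.085 and Orc1 between -0.017 and 0.095. Samples of different assays were not paired, since no replicate number in the labels links them. Among the units fitted, scGRO–seq and inAGTuC share Exp208 alone, whose 4 libraries were compared without pairing. With batch as a random block 0, 6 and 6 of the 9 genes passed for scGRO–seq against inAGTuC and AGTuC against inAGTuC and against scGRO–seq.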
